A study of Sus scrofa with 7 samples.

Results

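Retinoids are vitamin A and its derivatives. Retinol travels in blood bound to the carrier RBP4 and can enter cells through the membrane receptor STRA6. Inside the cell, RDH10 oxidises retinol to retinaldehyde, and the retinaldehyde dehydrogenases ALDH1A1, ALDH1A2 and ALDH1A3 turn retinaldehyde into retinoic acid. CRABP1 and CRABP2 bind retinoic acid in the cytoplasm, and CYP26A1, a cytochrome P450, breaks it down. Retinoic acid acts through nuclear receptors and is known for driving stem cells out of pluripotency, and the yolk sac, which extraembryonic endoderm helps to form, is a place of retinoid transport in the embryo.

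These 9 genes were looked up by their symbols among the 29510 rows of a porcine RNA-seq data set, by a rule that names the symbols and sets no threshold on values. Of the 9, 6 (RBP4, CRABP1, CRABP2, ALDH1A1, ALDH1A2 and RDH10) carried their symbol in the tables. The other 3 (STRA6, ALDH1A3 and CYP26A1) had a row with an Ensembl identifier but no symbol and were matched through a list of identifiers and symbols, a step added after the tables had been read. The protein names given in the tables for these 3 rows are those of the same proteins.

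The series compared 3 lines of porcine extraembryonic endoderm (pXEN) cells with 2 lines of naïve-like embryonic stem cells (nESCs) and 2 lines of primed embryonic stem cells (pESCs), with 1 library per line. Passage numbers were 26, 26 and 23 for pXEN lines 1, 2 and 3, 21 and 22 for nESC lines 1 and 2, and 20 for both pESC lines. Each line entered once, so p-values measure the spread between lines. The pXEN lines came from inner cell masses of parthenogenetic blastocysts and grew on mouse embryonic fibroblasts (MEFs) in LCDM medium. This medium holds serum (FBS), knockout serum replacement, hLIF, CHIR99021, (S)-(+)-dimethindene maleate, minocycline hydrochloride and Y27632. The nESCs also grew on MEFs, in medium with knockout serum replacement, N2B27, FGF, hLIF, PD0325901, CHIR99021, SB431542 and doxycycline. The pESCs, which were converted from naïve-like ESCs (from which line is not given), grew on STO feeder cells. Their medium held knockout serum replacement, insulin-transferrin-selenium, activin A, bFGF, EGF and hLIF. FBS was thus listed for the pXEN medium alone. Medium, feeder type and cell type therefore cannot be told apart in the comparisons with pESCs, nor medium and cell type in the comparison with nESCs. Retinoid content of the media and the cells was not measured.

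The total count of a library was 10408164 to 12995720. At this depth the detection floor, taken as 3 counts in a library, corresponded to 0.231 to 0.288 CPM (counts scaled by the library total), and intervals and floors cover counting error only. Of 8 XEN marker genes, all were in the tables, and their summed level was 2510 to 2958 CPM in pXEN cells, 41.4 to 43.1 CPM in nESCs and 35.0 to 37.4 CPM in pESCs. SOX2, a pluripotency factor, had 1633 to 2729 counts in the ESC libraries and 0, 30 and 0 in pXEN lines 1, 2 and 3. POU5F1, another defining factor of pluripotent cells, had at most 5 counts in each of the 7 libraries, so its row marks none of the cell types here. The row of NANOG, also a pluripotency factor, went the other way. It had 177, 60 and 166 counts in the pXEN lines, 0 and 2 in the nESC lines and 21 and 22 in the pESC lines. This row lies on chromosome 1 and has 1159 bases of exon in a span of 1159, so it holds no intron. Whether it counts the NANOG gene was not tested. By staining, PCR and Western blotting, the study of these cells found NANOG in nESCs and not in pXEN cells. The summed level of 8 pluripotent markers was 310 to 383 CPM in pXEN cells, 227 to 261 CPM in nESCs and 703 to 729 CPM in pESCs. In pXEN cells nearly all of this sum was LIN28A, an RNA-binding protein, with 301 to 366 CPM. Bulk RNA cannot tell fewer cells of a type from less RNA per cell.

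The retinoid genes called between pXEN cells and pESCs fell into 2 opposite patterns. CYP26A1 and ALDH1A1, the enzymes of breakdown and synthesis, were higher in pXEN cells than in both ESC types. STRA6, CRABP1 and CRABP2 were lower in pXEN cells than in pESCs, and were not called against nESCs. RDH10 was highest in nESCs, and RBP4, ALDH1A2 and ALDH1A3 were near the detection floor in nearly all libraries. A gene was called changed at an adjusted p below 0.05 in the quasi-likelihood test of edgeR, with p-values adjusted after Benjamini and Hochberg over the 17447 genes tested. Of the 9 retinoid genes, 6 passed the filter on low counts and were tested. Between pXEN cells and nESCs, 2 were called higher and 1 lower in pXEN cells, and 54.5% of all tested genes were called in this comparison (28.3% higher and 26.2% lower). Between pXEN cells and pESCs, 2 were called higher and 3 lower in pXEN cells, against 48.3% of all tested genes called (23.9% higher and 24.4% lower). Between pESCs and nESCs, 3 were called higher in pESCs and 0 lower, where 32.2% of all tested genes were called (19.0% higher and 13.3% lower). With so few genes, these counts are descriptions. The comparisons share libraries, since the pXEN lines stand in both of the former and each ESC type in 2. The values of pXEN cells and nESCs did not overlap in 3 of the 6 tested genes, against 72.2% of all tested genes, those of pXEN cells and pESCs in 6 of 6 (69.2% of all tested genes) and those of pESCs and nESCs in 6 of 6 (72.6%).

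**Figure D1:**
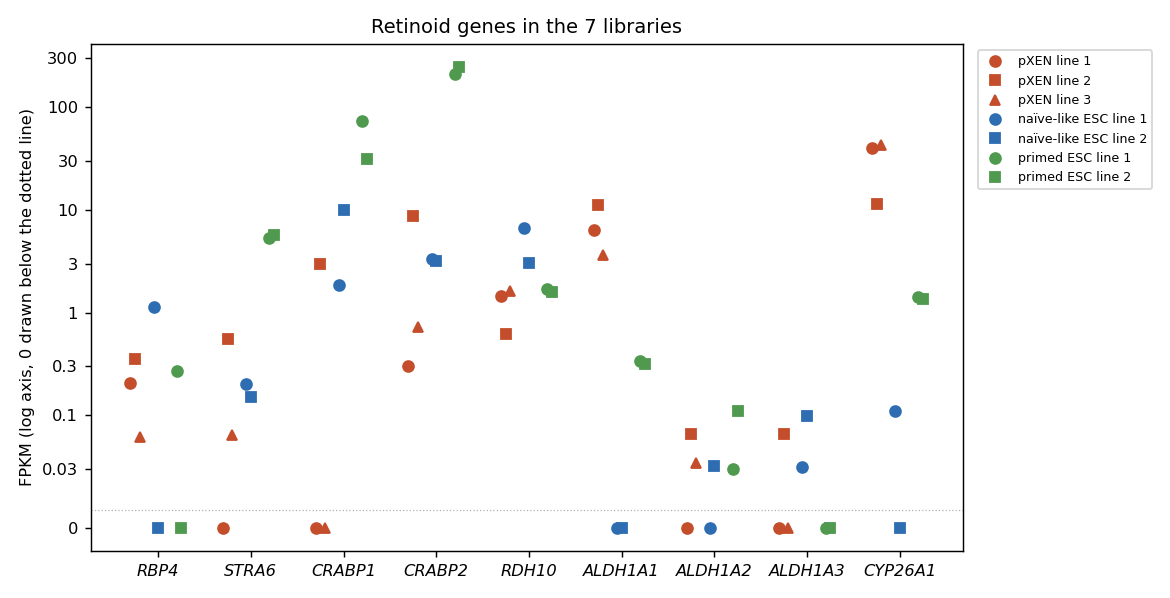
FPKM (fragments scaled by gene length and library total, as deposited) of the 9 retinoid genes in each library, on a log axis with values of 0 drawn below the dotted line. Colours give the cell type and symbols the line, with no averaging. CYP26A1 and ALDH1A1 were highest in the pXEN lines, and STRA6, CRABP1 and CRABP2 in the pESC lines.

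CYP26A1 was the retinoid gene with the highest level in pXEN cells. Its row lies on chromosome 14 at 14:114202067-114205314 (Sscrofa10.2, forward strand). The counts of pXEN lines 1, 2 and 3 were 584, 194 and 702, against 2 and 0 in nESC lines 1 and 2 and 27 in each pESC line. These values correspond to 39.7, 11.3 and 42.7 FPKM in pXEN cells (31.2 ± 17.3, SD, n = 3), 0.110 and 0 in nESCs, and 1.43 and 1.34 in pESCs (1.39 ± 0.064, SD, n = 2). All pXEN lines lay above all ESC lines, with line 2 the lowest of the 3. In counts scaled by library totals, pXEN cells were at 475 times the level of nESCs, whose libraries held 2 counts in all, with a 95% counting interval of 131 to 3.93e+03 (adjusted p = 0.000166). Against pESCs the log2 fold change was 4.49 (SE 0.64, adjusted p = 0.000819). Both calls held in 15 of 15 alternative analyses.

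In pESCs, CYP26A1 was 24.1 times the level of nESCs (95% counting interval 6.36 to 204, adjusted p = 0.0343). This call held in 10 of 15 alternatives. It was lost when any 1 of the 4 ESC libraries was left out. The fitted log2 fold change, 4.45 with all libraries, was then 7.60 and 3.56 without nESC lines 1 and 2. Without pESC lines 1 and 2 it was 4.40 and 4.50.

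The tables hold a further row for CYP26A1, without a symbol, on the unplaced scaffold JH118908.1 (78396 to 82010, 1457 bases of exon against 1494 for the chromosome 14 row). In pXEN lines 1, 2 and 3 its counts were 146, 41 and 164, with 0 and 3 in the nESC lines, and 4 and 2 in the pESC lines. The further row therefore took 20%, 17.4% and 18.9% of the summed CYP26A1 counts of the 3 pXEN lines, a nearly constant share. It too was called higher in pXEN cells, at 75.2 times the level of nESCs (95% counting interval 25.5 to 366, adjusted p = 0.00136) and with a log2 fold change of 5.53 over pESCs (SE 0.95, adjusted p = 0.00207). Between pESCs and nESCs it was not called (adjusted p = 0.718). How reads that match both rows were shared is not given in the sources used here, so the level of either row alone is uncertain.

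ALDH1A1 was the member of its enzyme family that carried nearly all its reads in pXEN cells. Its row lies at 1:252793170-252808540 (forward strand). There were 44, 91 and 28 counts for pXEN lines 1, 2 and 3, 0 in each nESC line and 3 in each pESC line, or 6.31, 11.2 and 3.59 FPKM in pXEN cells (7.02 ± 3.84, SD, n = 3) against 0 in nESCs and 0.336 and 0.314 in pESCs. The pXEN lines did not overlap with the ESC lines, and line 2 was here the highest of the 3. Set against the floor of 3 counts per library, pXEN cells were at least 17.1-fold higher than nESCs (adjusted p = 0.000701). Against pESCs, which are at the floor, the ratio was 19.5 (95% counting interval 8.79 to 54.0, adjusted p = 0.00252). Both calls held in 15 of 15 alternatives. Between pESCs and nESCs no fold is given, as all 4 libraries were at or under 3 counts (adjusted p = 0.0812).

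ALDH1A2 and ALDH1A3, the other retinaldehyde dehydrogenases, were close to undetected. ALDH1A2 (1:126092062-126105183) had 0, 2 and 1 counts in the pXEN lines, 0 and 1 in the nESC lines and 1 and 4 in the pESC lines. ALDH1A3 (1:155732315-155751077) had 0, 2 and 0 counts in the pXEN lines, 1 and 3 in the nESC lines and 0 in both pESC lines. Both were removed by the filter and stayed at or under 0.111 FPKM. Further rows of these proteins and of STRA6 held at most 6 counts in any library, the highest an ALDH1A3 row with 0.490 FPKM in nESC line 2. As a share of the summed FPKM of the 3 main rows, ALDH1A1 made up 98.8% to 100% in the pXEN lines. In the ESC lines the sum over these 3 rows was at most 0.425 FPKM, so no order within the family could be read there.

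RDH10, which carries out the preceding oxidation of retinol, showed another order of cell types. Its named row is short, with 282 bases of exon at 9970 to 11724 of scaffold GL894040.1, and held 4, 2 and 5 counts in the pXEN lines, 23 and 10 in the nESC lines and 6 in each pESC line. It was called lower in pXEN cells than in nESCs (log2 fold change −1.98, SE 0.62, adjusted p = 0.0267), and this call held in only 8 of 15 alternatives. It was lost without pXEN line 1 or 2 (adjusted p = 0.0522 and 0.053), without nESC line 1 (0.279) and without pESC line 1 or 2 (0.0659 and 0.066). DESeq2 gave 0.0941. The named row was not called against pESCs (−0.41, SE 0.68, adjusted p = 0.655) or between pESCs and nESCs (−1.57, SE 0.66, adjusted p = 0.109).

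A longer row of the same protein without a symbol lies next to it on the same scaffold (5598 to 7657, 1972 bases of exon) and held 88, 185 and 85 counts in the pXEN lines, 561 and 368 in the nESC lines and 93 in each pESC line. Between 93.9% and 98.9% of the summed RDH10 counts of a library were on this row. Its levels were 5.53 ± 2.29 FPKM in pXEN cells (SD, n = 3), 19.7 ± 5.29 in nESCs (SD, n = 2) and 3.62 ± 0.168 in pESCs (SD, n = 2). On this row nESCs stood above all other lines. It was called lower in pXEN cells than in nESCs (−1.83, SE 0.32, adjusted p = 0.00172) and lower in pESCs than in nESCs (−2.46, SE 0.37, adjusted p = 0.00203), in 15 of 15 alternatives each. It was not called between pXEN cells and pESCs (0.63, SE 0.34, adjusted p = 0.167). With the counts of both rows summed, an alternative chosen after the data had been seen, the value against pESCs was 0.58 (adjusted p = 0.181), of opposite sign to that of the short row.

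**Figure D2:**
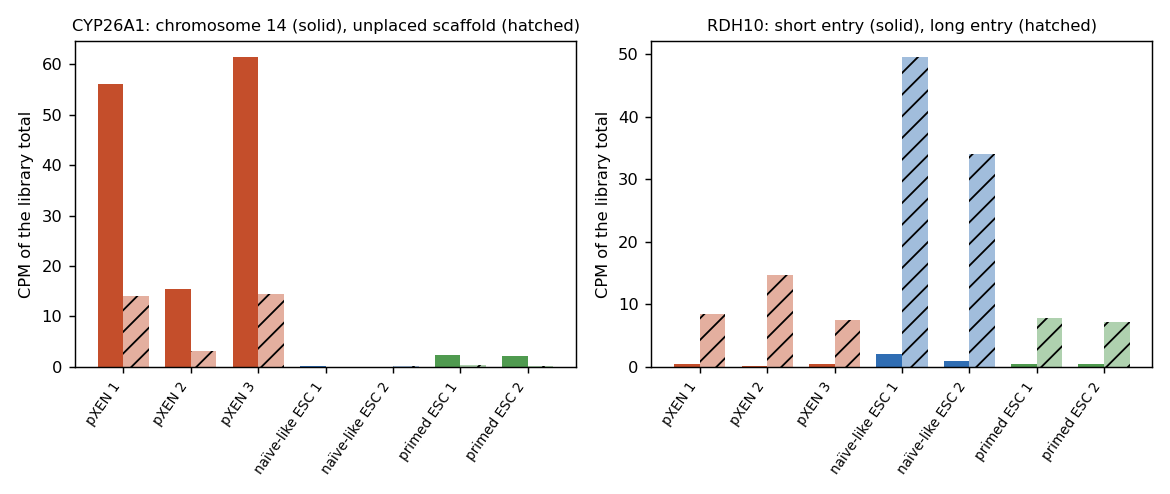
CPM for the rows of CYP26A1 (left, chromosome 14 solid and unplaced scaffold hatched) and RDH10 (right, short named row solid and long row hatched), 1 pair of bars per library on a linear axis from 0. Both CYP26A1 rows are highest in the pXEN lines, and most RDH10 reads lie on the long row, which is highest in the nESC lines.

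CRABP2, a carrier that is known to deliver retinoic acid to its nuclear receptors, had the highest level of all 9 genes and reached it in pESCs. Its row lies at 4:101959961-101966042 (forward strand). It had 2674 and 3313 counts in pESC lines 1 and 2, 40 and 37 in nESC lines 1 and 2, and 3, 101 and 8 in pXEN lines 1, 2 and 3. In FPKM these were 212 and 246 in pESCs (229 ± 24.0, SD, n = 2), 3.30 and 3.16 in nESCs (3.23 ± 0.0928, SD, n = 2) and 0.304, 8.77 and 0.727 in pXEN cells (3.27 ± 4.77, SD, n = 3). Every other line lay below both pESC lines, and pXEN line 2 lay above the nESC lines while pXEN lines 1 and 3 lay below them. The log2 fold change was −6.07 in pXEN cells against pESCs (SE 0.82, adjusted p = 0.000588) and 6.13 in pESCs against nESCs (SE 0.97, adjusted p = 0.00255), and both calls held in 15 of 15 alternatives. Against nESCs, CRABP2 was not called in pXEN cells (0.06, SE 0.97, adjusted p = 0.969).

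CRABP1, its paralog, lies at 7:53156332-53163125 (reverse strand) and had 701 and 318 counts in the pESC lines, 17 and 89 in the nESC lines, and 0, 26 and 0 in the pXEN lines. Its FPKM was 52.0 ± 29.7 in pESCs (SD, n = 2), 5.93 ± 5.78 in nESCs (SD, n = 2) and 0.991 ± 1.72 in pXEN cells (SD, n = 3). The lines of each type were thus less alike than for CRABP2. CRABP1 was lower in pXEN cells than in pESCs (−5.62, SE 1.12, adjusted p = 0.00428, in 15 of 15 alternatives). It was called neither between pXEN cells and nESCs (−2.50, SE 1.19, adjusted p = 0.111) nor between pESCs and nESCs (3.12, SE 1.09, adjusted p = 0.0623). The latter was called in 5 of 15 alternatives, among them those without pXEN line 2 (adjusted p = 0.00762) and without pXEN line 3 (0.0496). The balance of the paralogs also varied within a cell type, since CRABP1 made up 35.9% and 76.0% of the summed FPKM of both genes in nESC lines 1 and 2, and 25.6% and 11.2% in pESC lines 1 and 2.

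STRA6, the receptor that takes up retinol from RBP4, lies at 7:63942642-63965635 (forward strand) and had 191 and 220 counts in the pESC lines, 7 and 5 in the nESC lines, and 0, 18 and 2 in the pXEN lines. This was 5.50 ± 0.294 FPKM in pESCs (SD, n = 2) against 0.176 ± 0.0369 in nESCs (SD, n = 2) and 0.204 ± 0.299 in pXEN cells (SD, n = 3). Both pESC lines lay above every other line. STRA6 was lower in pXEN cells than in pESCs (log2 fold change −4.67, SE 0.86, adjusted p = 0.00283, in 15 of 15 alternatives). It was higher in pESCs than in nESCs (4.92, SE 1.03, adjusted p = 0.00855), a call lost without nESC line 1 or 2 (adjusted p = 0.0652 and 0.0656). It was not called between pXEN cells and nESCs (0.25, SE 1.08, adjusted p = 0.862).

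RBP4, the retinol carrier of blood, was not detected above the floor in most libraries. Its row at 14:114769059-114776317 had 3, 6 and 1 counts in the pXEN lines, 20 and 0 in the nESC lines and 5 and 0 in the pESC lines, and it was removed by the filter. The nESC lines differed from each other by more than the means of the cell types did. On chromosome 14 the row of CYP26C1, a relative of CYP26A1, ends 4681 bases before that of CYP26A1, and RBP4 begins 563744 bases after it. These neighbours did not share the level of CYP26A1 in pXEN cells, where CYP26C1 had 0, 3 and 0 counts.

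**Figure D3:**
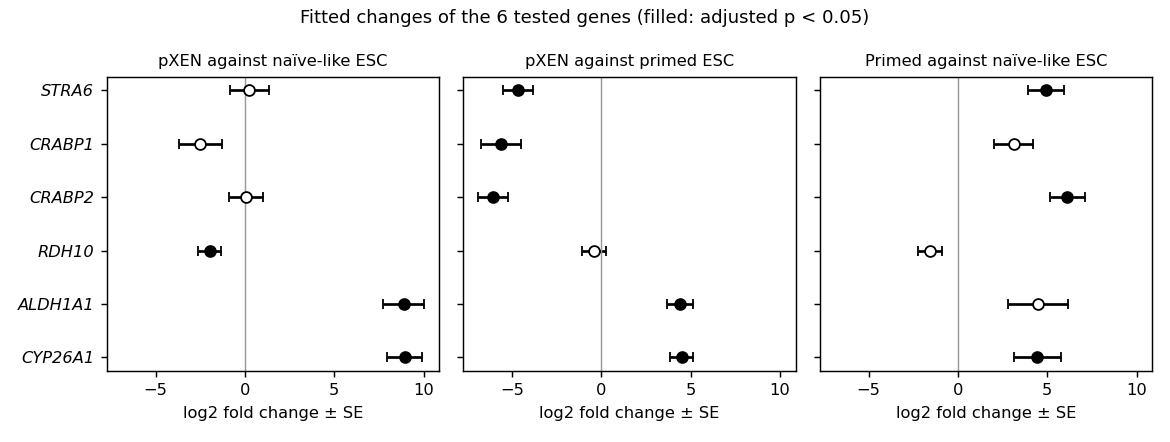
Fitted log2 fold changes with their standard errors for the 6 tested retinoid genes in the 3 comparisons, named first minus second cell type, filled where the adjusted p was below 0.05. ALDH1A1 and CYP26A1 lie to the right and STRA6, CRABP1 and CRABP2 to the left in pXEN cells against pESCs. Where a group had 0 to 3 counts per library (ALDH1A1, and CYP26A1 in nESCs), the point depends on the small count added in fitting and is no bound.

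Within a cell type, the order of the genes can be read in FPKM, which is scaled by length. In pXEN cells the means fell from CYP26A1 (31.2) and ALDH1A1 (7.02) to CRABP2 (3.27), the named row of RDH10 (1.22), CRABP1 (0.991), RBP4 (0.208) and STRA6 (0.204). In line 2 CYP26A1 (11.3) and ALDH1A1 (11.2) were level, and from ALDH1A1 downward the neighbours did not differ beyond the spread between lines. In nESCs, CRABP1 (5.93), RDH10 (4.88) and CRABP2 (3.23) led and overlapped in their spread when RDH10 was read from its named row, and RBP4 (0.561), STRA6 (0.176), CYP26A1 (0.0551) and ALDH1A1 (0) followed. In pESCs, CRABP2 (229) was followed by CRABP1 (52.0), STRA6 (5.50), RDH10 (1.63), CYP26A1 (1.39), ALDH1A1 (0.325) and RBP4 (0.135). There neighbours in the order had separate ranges over both lines, though the SDs of ALDH1A1 and RBP4 overlapped. ALDH1A2 and ALDH1A3 are left out of these orders, as they were near the floor throughout. Read from its long row, which holds most of its counts, RDH10 led alone in nESCs (23.4 and 16.0 in lines 1 and 2, above CRABP1 in each), stood above the mean of CRABP2 in pXEN cells (5.53) and kept its place in pESCs (3.62).

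The genes high in pESCs also set pXEN line 2 apart from pXEN lines 1 and 3. CRABP2 in line 2 was 28.8 times its level in the lowest pXEN line, in FPKM, and nearly all STRA6 and all CRABP1 counts of the pXEN lines were in line 2. For CYP26A1 and ALDH1A1 the highest pXEN line was 3.79 and 3.11 times the lowest. Without line 2, all 3 genes were called lower in pXEN cells than in nESCs, with a log2 fold change of −2.60 for CRABP2 (adjusted p = 0.000252). STRA6, at 0 and 2 counts in lines 1 and 3, was then 5.92 times as high in nESCs (95% counting interval 1.32 to 54.5, adjusted p = 0.0404). CRABP1, at 0 counts in lines 1 and 3, was then at least 17.7-fold lower than in nESCs (adjusted p = 0.00887). The number of retinoid genes lower in pXEN cells than in nESCs was then 3 instead of 1, as RDH10 was lost. The calls against pESCs did not change, but the differences were larger. Without line 2, CRABP2 had a log2 fold change of −8.73 (−6.07 with it), pESCs were at 181 times the STRA6 level of pXEN cells (95% counting interval 49.8 to 1500), and CRABP1 was at least 152-fold lower in pXEN cells.

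Other marker genes moved with line 2. The summed level of 12 fibroblast markers, all in the tables, was 551 CPM in line 2, against 17.9 and 37.7 CPM in lines 1 and 3, 87.1 to 112 CPM in nESCs and 301 to 341 CPM in pESCs. TWIST1 had 0, 1 and 1 counts in lines 1, 2 and 3, and the other 11 markers were each highest in line 2 among the pXEN lines. COL3A1 had 4251 counts in line 2 against 20 and 203, and COL1A2 had 1237 against 13 and 27. Of 8 pluripotent markers, SOX2 (30 counts against 0 and 0) and UTF1 (21 against 4 and 3) were highest in line 2. The NANOG row was lowest there (60 against 177 and 166), and LIN28A had 301 CPM against 366 and 364. POU5F1 had 0 counts in line 2, and ESRRB, DPPA2 and DPPA4 had 0 in every pXEN line. Of the XEN markers, AFP, a serum protein of yolk sac and liver, had 4037 counts in line 2 against 60 and 37, and 104 times the FPKM of the lowest pXEN line. The sum of the 8 XEN markers was, by contrast, lowest in line 2, at 2510 CPM against 2958 and 2923. Relative to the mean CPM of pESCs, line 2 stood at 8.61% for STRA6, 4.91% for CRABP1 and 3.32% for CRABP2. For pluripotent markers it stood at 1.14% (SOX2), 1.07% (UTF1), 0% (ESRRB), 108% (LIN28A) and 274% (the NANOG row). The part of other cells in the level of these retinoid genes in line 2 was not tested.

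**Figure D4:**
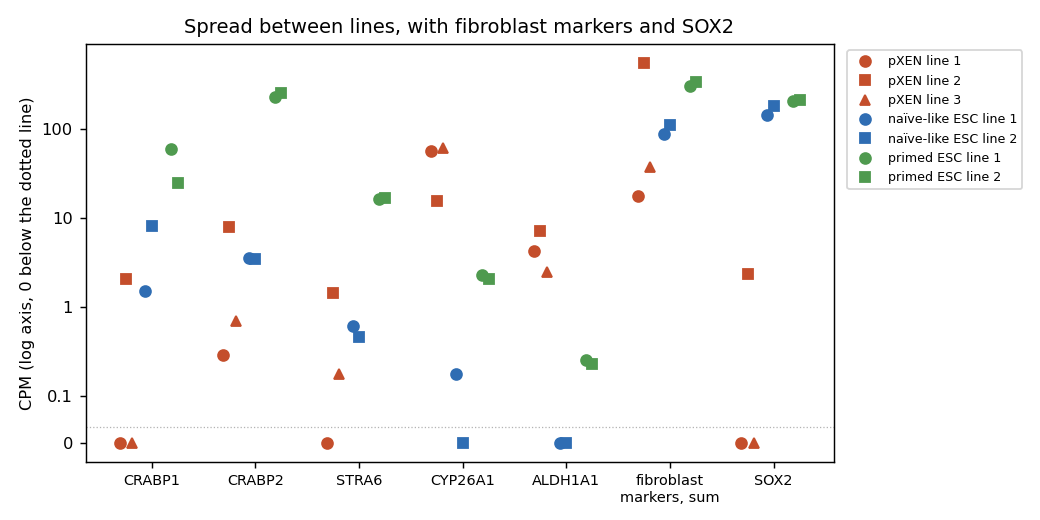
CPM of 5 retinoid genes, of the 12 summed fibroblast markers and of SOX2 in each library, on a log axis with 0 below the dotted line. In pXEN line 2 (red squares) CRABP1, CRABP2, STRA6, the fibroblast markers and SOX2 lie above pXEN lines 1 and 3, and CYP26A1 lies below them.

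In pESCs, some markers of trophectoderm were present together with CRABP2, CRABP1 and STRA6. Of 6 trophectoderm markers, 5 were in the tables, and their sum was 128 to 145 CPM in pESCs against at most 4.82 CPM in every other library. Most of the sum in pESCs was TFAP2C, with 1553 and 1519 counts (132 and 117 CPM). GATA3 had 139 and 109 counts in the pESC lines, and CDX2 had 17 and 33. HAND1 was at 0 in every library. ELF5 went the other way, with 10, 3 and 6 counts in the pXEN lines and 0 in every ESC library. Of the neural markers, PAX6 (245 and 172 counts) and PAX3 (103 and 78) were also highest in the pESC lines, whereas NES was lower there than in pXEN cells. The part of these markers in the level of the retinoid genes was not tested.

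Genes with the most similar profile were looked for among the 7751 or 7752 other tested genes with a symbol and a mean of at least 3 on the log2 CPM scale, by Pearson's r over the 7 libraries. With 3 cell types in 7 libraries, r mostly reflects the cell types, and the values are descriptions. STRA6 was most like CRABP2 (r = 0.997) and MARK2 (0.992), and CRABP2 most like PEAR1 (0.997) and COMMD1 (0.993). For CRABP1 they were IRS1 (0.985) and ZNF583 (0.984), and for RDH10 EWSR1 (0.986) and TOP3B (0.979). ALDH1A1 came closest to RBM7 (0.998) and HSPA12A (0.995), and CYP26A1 to PDIA5 (0.999) and SPRED1 (0.998). As many as 539 genes had r above 0.95 with ALDH1A1 and 494 with CYP26A1, against 27 with RDH10.

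Among 31 further genes of retinoid handling, 27 were in the tables and 14 were tested. In pXEN cells 6 were higher and 4 lower than in nESCs (median log2 fold change 0.69), and 6 were higher and 5 lower than in pESCs (0.41), where the median over all tested genes was 0.00 and −0.01 and 54.5% and 48.3% of them were called. Between pESCs and nESCs, 2 were higher, 0 lower and 12 not called, against 19.0% and 13.3% of all tested genes called higher and lower. The genes concerned did not all act in 1 direction of the pathway. DHRS3, which reduces retinaldehyde back to retinol, was among those higher in pXEN cells, and LRAT, which stores retinol as esters, among those lower.

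DHRS3 had 323, 325 and 339 counts in the pXEN lines, 10 and 8 in the nESC lines and 73 and 82 in the pESC lines. In pXEN cells it was higher by 5.32 on the log2 scale against nESCs (SE 0.23, adjusted p = 1.93e-06) and by 2.37 against pESCs (SE 0.18, adjusted p = 3.47e-05), and pESCs were above nESCs by 2.94 (SE 0.24, adjusted p = 0.000118). DHRS3 thus ordered the cell types as CYP26A1 did. LRAT had 24, 17 and 12 counts in the pXEN lines against 274 to 312 in the 4 ESC libraries, with log2 fold changes of −3.83 (adjusted p = 1.85e-05) and −3.81 (adjusted p = 3.11e-05). FABP5, a fatty acid binding protein that also binds retinoic acid, had 8, 29 and 15 counts against 742 to 1050, with −5.67 (adjusted p = 4.16e-06) and −5.17 (adjusted p = 1.03e-05).

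BCO1, which splits carotene into retinaldehyde, had 24, 30 and 25 counts in the pXEN lines, 4 and 0 in the nESC lines and 0 in both pESC lines. It was higher than in nESCs by 3.78 on the log2 scale (adjusted p = 0.0098) and at least 9.44-fold higher than in pESCs (adjusted p = 0.00308).

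TTR, transthyretin, which carries RBP4 in blood, had 39, 172 and 11 counts in the pXEN lines and 0 in every ESC library. It was at least 22.5-fold higher than in nESCs (adjusted p = 0.0148) and at least 25.2-fold higher than in pESCs (adjusted p = 0.0159). Line 2 held most of its counts, and without it the bounds were 8.68-fold over nESCs and 9.70-fold over pESCs, with both differences past the threshold. The calls were lost without either library of the ESC type compared, with adjusted p of 0.0633 and 0.0598 without nESC lines 1 and 2 and of 0.0668 and 0.0701 without pESC lines 1 and 2. CYP26B1, a further retinoic acid hydroxylase, had 1 to 14 counts per library and was not tested. CYP26C1, named here after its values were seen, had 15 counts in each pESC line and at most 3 in any other library. It was lower in pXEN cells than in pESCs (adjusted p = 0.0278, called in 9 of 15 alternatives and lost without pXEN line 1 or 3 or either pESC line, at 0.0643, 0.0611, 0.146 and 0.14, and with DESeq2, at 0.141).

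Of 7 receptor genes, 6 had a row and all 6 were tested (RXRA had no row). In pXEN cells 2 were higher and 3 lower than in nESCs, and 2 were higher and 4 lower than in pESCs. In pESCs 2 were higher and 0 lower than in nESCs. Of all tested genes, 28.3% and 26.2%, 23.9% and 24.4%, and 19.0% and 13.3% were called higher and lower in these comparisons. The median log2 fold changes were 0.04, −0.82 and 0.29. RARA, a retinoic acid receptor, had 491, 620 and 529 counts in the pXEN lines, 127 and 154 in the nESC lines and 362 and 348 in the pESC lines. It was higher in pXEN cells by 2.09 against nESCs (adjusted p = 2.17e-05) and 0.90 against pESCs (adjusted p = 0.00157), and PPARD, a nuclear receptor that FABP5 serves, by 0.62 (adjusted p = 0.00397) and 0.72 (adjusted p = 0.00223).

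The receptors RARB and RARG were lower in pXEN cells than in both ESC types. RARB had 42, 66 and 36 counts against 145 and 168 in nESCs and 120 and 118 in pESCs. Its log2 fold changes were −1.57 (adjusted p = 0.00188) and −1.03 (adjusted p = 0.0167), opposite in sign to the median over the tested genes of its chromosome 13 (0.46 and 0.40). The medians of chromosomes 1, 4, 7 and 14, which hold 8 of the 9 retinoid genes, lay between −0.07 and 0.07 in all 3 comparisons. The call of RARB against pESCs was lost without either pESC line (adjusted p = 0.0914 without line 1 and 0.0652 without line 2). RARG had −0.73 (adjusted p = 0.0205, and 0.0616 and 0.106 without pXEN line 1 and nESC line 1) and −1.26 (adjusted p = 0.00181). RXRG, a partner of these receptors, was found in pESCs, with 105 and 118 counts against 1, 0 and 0 in the pXEN lines and 0 in both nESC lines. The ratio of pESCs to pXEN cells was 310 (95% counting interval 55.1 to 1.23e+04, adjusted p = 0.000191).

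Of 22 genes listed as responding to retinoic acid, 19 were in the tables and 16 tested, and RARB and DHRS3 also stand in the lists above. In pXEN cells 5 were higher and 4 lower than in nESCs (median −0.04), and 4 were higher and 7 lower than in pESCs (median −0.80). In pESCs 5 were higher and 2 lower than in nESCs (median 0.79). Of the 16 tested, 9, 11 and 7 were called in the 3 comparisons, against 54.5%, 48.3% and 32.2% of all tested genes, and calls in both directions were also found among all genes. HOXB4, a homeobox gene, was higher in pXEN cells by 4.99 against nESCs (adjusted p = 5.7e-05) and 3.67 against pESCs (adjusted p = 0.000198). HOXA5, another homeobox gene, had 96, 63 and 103 counts in the pXEN lines against 1 and 11 in the nESC lines and 18 and 17 in the pESC lines. It was higher in pXEN cells by 3.98 against nESCs (adjusted p = 0.0022) and 2.61 against pESCs (adjusted p = 0.0106, and 0.0689 and 0.0808 without pESC lines 1 and 2). HOXB2, a neighbour of HOXB4 on chromosome 12, was highest in nESCs, with 104 and 117 counts against 9, 0 and 3 in the pXEN lines and 2 and 10 in the pESC lines. It was lower in pXEN cells than in nESCs by −4.58 (adjusted p = 0.0029) and was not called against pESCs (−0.25, adjusted p = 0.867).

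HOXA3 was seen in pESCs, with 38 and 14 counts against 0, 2 and 0 in the pXEN lines and 0 in both nESC lines (adjusted p = 0.00869 for pXEN cells against pESCs, and 0.107 without pESC line 1). NR2F1, a nuclear receptor that retinoic acid is known to induce, was lower in pXEN cells by −3.15 against nESCs (adjusted p = 6.08e-05) and −2.63 against pESCs (adjusted p = 0.000212), with 90, 231 and 157 counts against 1115 to 1771 in the ESC libraries.

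**Figure D5:**
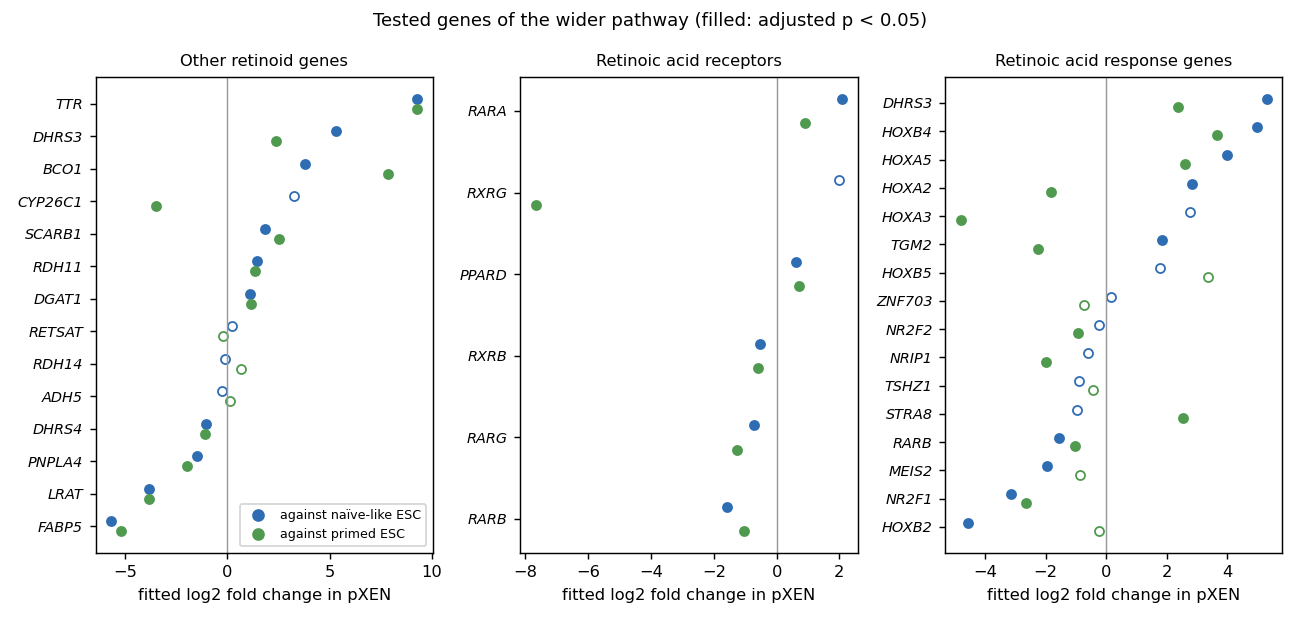
Fitted log2 fold changes of pXEN cells against nESCs (blue) and pESCs (green) for the tested genes of 3 lists, filled where the adjusted p was below 0.05. Each list holds filled points on both sides of 0. Points of genes with 0 to 3 counts per library in a group (such as TTR and RXRG) depend on the small count added in fitting.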

How the data were processed

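Total RNA of 7 cell lines was sequenced from rRNA-depleted, directional libraries on an Illumina NovaSeq. The authors deposited raw read counts of all genes and, in a table of their own, FPKM values, which are scaled by gene length and library total. The submitters' processing notes name HISAT2 2.0.5, featureCounts 1.5.0-p3 and edgeR 3.22.5 and the build Sscrofa10.2. The strand and multi-mapping settings are not given in the sources used here. Groups came from the sample labels. CPM used the column totals. Counts were tested in R 4.3.3 with edgeR 4.0.16 (filterByExpr, TMM, quasi-likelihood fit of all 7 libraries, BCV 0.223, Benjamini-Hochberg over 17447 genes, threshold 0.05). A fold against a group at 0 in all libraries was computed against 3 counts per library, and against a group with 1 to 3 counts in its highest library given as a ratio with an exact conditional binomial 95% interval. The steps were tested on simulated data.

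Alternatives were DESeq2 1.42.0, upper-quartile scaling, no filter, at least 10 counts in every library, limma 3.58.1 on log2(FPKM + 0.1) and log2(FPKM + 1), only the cell types compared, the replicate number as a block, and leaving out each library. Summing rows of the same protein was added after the data were seen. Named were all 9 genes and, per further list and pXEN comparison, the 4 called genes with the largest change, plus TTR, LRAT, DHRS3, CYP26B1, RARA, RARB, RARG and RXRA. The genes, lists and marker sets were chosen with earlier results of these data known. Genes taken out of the further lists are not reported here and enter no list count, and the genes kept in the lists enter the counts whether named or not.

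The list of neural markers (4, of which 3 in the tables) gave summed ranges of 129 to 206, 32.8 to 168 and 104 to 115 CPM in pXEN cells, nESCs and pESCs. NES made up most of each sum, with 129 to 206 CPM in pXEN cells and 84.8 to 85.1 CPM in pESCs. PAX6 and PAX3, by contrast, were highest in pESCs. No genome or sequence of Sscrofa10.2 was used.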

Additional observations from a re-analysis of the deposited data

How the results depend on the processing

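Of 1200 single-gene values under the alternatives, 1127 kept their direction and side of the threshold, 44 lost and 15 gained a call, and 14 changed sign, of which 2 with a call. Those 2, both without pXEN line 2 and against nESCs, were STRA6 (−2.28, and up to 0.80 without another library) and CRABP2 (−2.60, and up to 0.57). In the same comparison limma with 0.1 added gave −0.32 for STRA6 and −1.21 for CRABP2, limma with 1 added −0.59 and upper-quartile scaling −0.12 for CRABP2. Upper-quartile scaling also shifted the median of all tested genes by −0.16, −0.08 and −0.07 in the 3 comparisons. With rows of the same protein summed, RDH10 against pESCs was 0.58. Leaving out a library gave, for pXEN cells against pESCs, −1.68 to 1.21 for HOXB2 (0.35 without pXEN line 2) and −0.13 to 0.34 for GPRC5A. Between pESCs and nESCs it gave −0.17 to 4.50 for the scaffold row of CYP26A1, −0.69 to 0.37 for RARRES2 (0.30 without pESC line 2) and −0.25 to 0.063 for GPRC5B. The cause was not tested.

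Among the retinoid genes, the count lower in pXEN cells than in nESCs was 0 with DESeq2 and with the replicate block, and the count lower in pESCs than in nESCs was 1 with rows summed. A minimum of 10 counts in every library left none of the 9 genes to test, since each has fewer in some library. It left 5, 5 and 0 calls among the further retinoid genes, 1 among the receptors between pESCs and nESCs, and 3, 4 and 2 among the response genes in the 3 comparisons. Between pESCs and nESCs, the further retinoid genes had 4 calls with DESeq2 and 5 with only these cell types fitted, and the response genes 11 with the latter. The response genes had 7 calls between pXEN cells and pESCs with the replicate block. Among the named genes, the block ended the calls of RDH10 and RARG against nESCs (adjusted p = 0.0673 and 0.0648) and of CYP26C1, RARB and HOXA3 against pESCs (adjusted p = 0.113, 0.0538 and 0.0568). Leaving out any library, the retinoid genes higher in pXEN cells stayed at 2 in number and the lower were 0 to 3 against nESCs and 3 against pESCs, and 1 to 5 were higher and 0 lower in pESCs than in nESCs. The further retinoid genes then had 7 to 10, 7 to 12 and 1 to 5 calls, the receptors 4 to 5, 4 to 6 and 2, and the response genes 8 to 13, 5 to 15 and 4 to 10. The deviations of libraries with the same line number had correlations of −0.00892 to 0.0442, so the numbers do not pair the lines. With the block, 8274, 6993 and 5041 genes were called in the 3 comparisons, against 9514, 8429 and 5621 without it. At this depth, differences in genes near the floor (RBP4, ALDH1A2, ALDH1A3, CYP26B1) were not detectable.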

Other observations

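The genes named here were chosen after their values had been seen, so no count over them is given. RARRES2, a chemoattractant known as a retinoic acid receptor responder, was counted 101, 157 and 116 times in the 3 pXEN lines and 1 or 2 times in each ESC library. That was 80.1 times the level of nESCs (95% counting interval 27.2 to 390, adjusted p = 2.16e-05, edgeR) and 89.7 times that of pESCs (30.5 to 437, adjusted p = 3.18e-05). RARRES1, another gene named for its response to these receptors, was higher in pXEN cells by 1.60 on the log2 scale against nESCs (adjusted p = 0.000565) and by 1.16 against pESCs (adjusted p = 0.00306), on chromosome 13, whose medians were 0.46 and 0.40.

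GPRC5A and GPRC5B, orphan receptors known as retinoic acid induced, differed in their pattern. GPRC5A had 162, 344 and 213 counts in the pXEN lines, 2 and 1 in the nESC lines and 221 and 295 in the pESC lines. It was higher than in nESCs in pXEN cells (ratio 154, 95% counting interval 52.5 to 748, adjusted p = 1.46e-05) and in pESCs (ratio 154, adjusted p = 6.9e-05), and was not called between pXEN cells and pESCs (0.16, adjusted p = 0.655). GPRC5B had 4297, 8154 and 4553 counts in the pXEN lines against 843 to 1114 in the ESC libraries, with log2 fold changes of 2.72 (adjusted p = 8.28e-05) and 2.81 (adjusted p = 0.000106). Line 2, the pXEN line with the lowest CYP26A1 level, had the highest CPM of GPRC5A, GPRC5B and RARRES2 among the pXEN lines. It had the lowest of RARRES1 (25.4 CPM against 34.5 and 32.8). Over the tested genes of chromosome 13, which holds RARRES1, line 2 minus the mean of lines 1 and 3 had a median of −0.38 on the log2 scale.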
